A study of Mus musculus with 9 samples.

Results

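The comparison described here sets 60 days after irradiation against the mean of 30 and 90 days in mouse submandibular gland, so that genes with a peak or a dip at 60 days stand out from genes that moved one way throughout. Each gene's mean at 60 days was weighted 1 and its means at 30 and 90 days -0.5 each, on the log2 scale. The contrast used 9 of the 9 libraries of the series, 3 at each time, and 15224 of the 54532 genes in the count table, those with adequate counts. All 3 groups were wild-type (WT) mice given 10 Gy radiation, and the labels set them apart only by the time since then: 30, 60 or 90 days. RNA came from sections of the gland. The age, the sex and the hour of collection are not given in the sources used here, and no unirradiated gland was analysed here, so a difference at 60 days is a difference between times after irradiation and not from the intact gland. The labels number the samples 1 to 3 within each time but do not say whether they are separate animals, so the p-values measure only the spread between these samples.

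The submandibular gland makes saliva in acinar cells and modifies it in ducts, and in rodents its granular ducts also make kallikreins and growth factors such as Egf. Growth factors signal inside cells through the MAP kinase ERK, which switches on early genes within minutes and also induces its own brakes, among them the dual-specificity phosphatases (Dusp genes) and the Sprouty proteins. Early genes of this kind are also switched on by cyclic AMP, by glucocorticoid hormone, and by mechanical cues through YAP, and their transcripts are short-lived.

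The count totals were 16541396 to 17179500 at 30 days, 21722141 to 24880803 at 60 days and 20410818 to 26065856 at 90 days. The most abundant gene, Mucl2, an acinar secretory product, took 31.35% to 42.76% of the counts, and levels are given as CPM (counts scaled to a common library total) after TMM scaling, whose factors ran from 0.8243 to 1.186. Acinar secretion genes summed to 312500 to 649200 CPM and granular duct products to 24690 to 75260 CPM in all 9 libraries, while 12 skeletal muscle markers summed to 2.36 to 3.71 CPM. A pair of libraries stood apart. The 90-day sample 2 had 515.3 CPM of B and plasma cell markers against 131.7 and 141.4 CPM in the other 90-day samples, 229.2 CPM of red blood cell genes against 74.54 and 105 CPM, and 1127 CPM of class II antigen presentation genes against 640.7 and 709.8 CPM. The 30-day sample 1 had the lowest sums of granular duct products, cell cycle genes and class II genes and the lowest TMM factor.

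At 60 days 39 of the 15224 genes (0.256%) differed from the mean of 30 and 90 days at an adjusted p under 0.05 by edgeR's quasi-likelihood test, 31 higher (0.204%) and 8 lower (0.0525%). The largest rises were in Ccn1, Dusp1, Dusp5, Hs3st1 and Tcim, and the largest falls in Prr33, Dusp6 and Sox18; these 8 genes were the ones past an absolute log2 difference of 1. The others differed by as little as 0.37 on the log2 scale. The median over all genes tested was 0.01, with 7816 above 0. With scaling by library size alone, where that median was -0.06, 20 genes differed, 12 higher and 8 lower; the 16 of them among the 39 were Ccn1, Dusp1, Dusp5, Dusp6, Tcim, Hs3st1, Atp13a5, Slc25a25, Pde4b, Cebpd, Gadd45g, Wfdc12, Hes1, Sox18, Sertad4 and Prr33. Without 60-day sample 2 the count was 13 genes, all among the 39, and without 60-day sample 3 it was 81 genes, 31 of them among the 39. Without 90-day sample 2 it was 28 genes, 27 of them among the 39, and without 30-day sample 1 it was 44 genes, 33 of them among the 39. The 13 genes that stayed when any 1 of the 9 libraries was left out were Ccn1, Dusp1, Dusp5, Dusp6, Tcim, Hs3st1, Atp13a5, Slc25a25, Sik1, Tent5a, Kcnk5, Hes1 and Gadd45g.

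**Figure D1:**
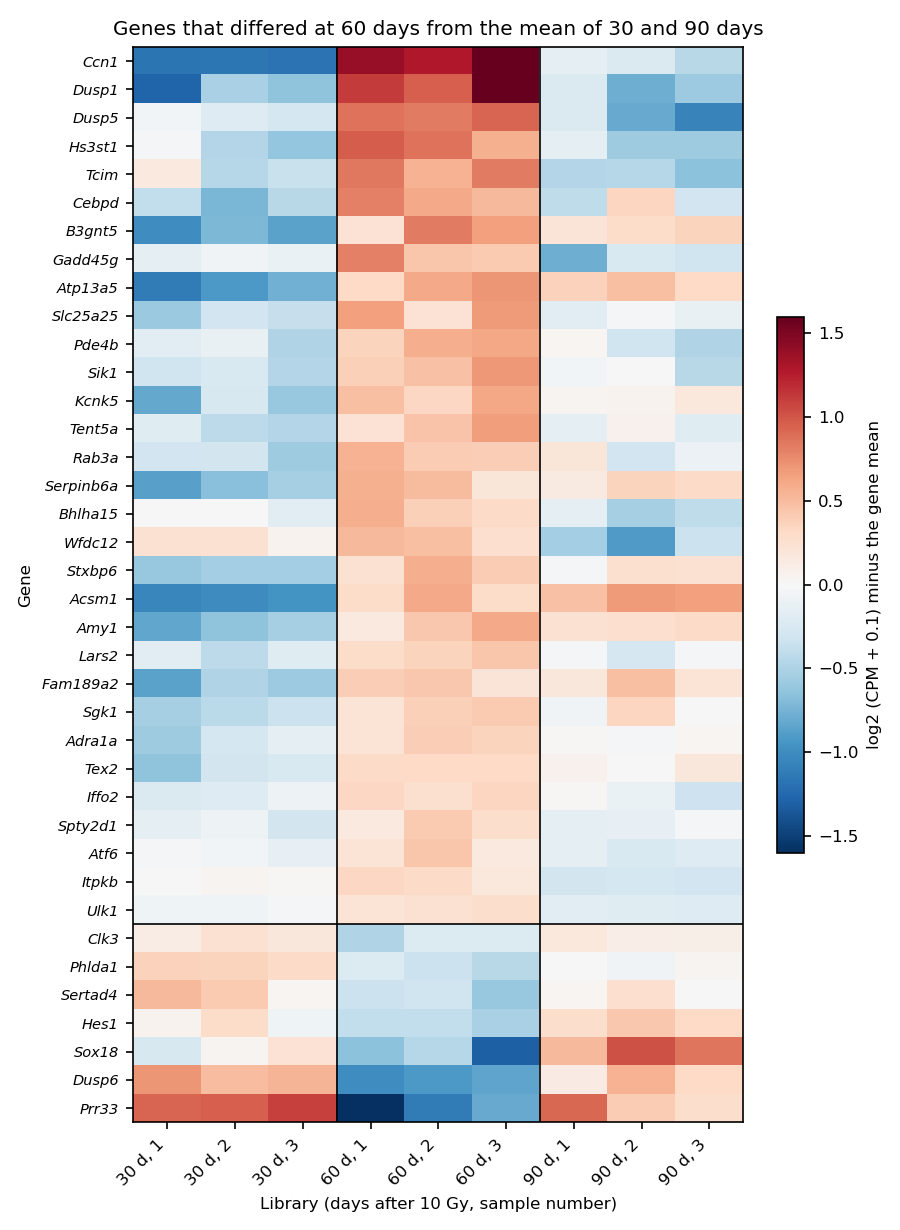
Heat map of 38 of the 39 genes that differed at 60 days (rows) in the 9 libraries (columns, grouped by day after 10 Gy); colour is log2 (CPM + 0.1) minus the gene's mean over the libraries, and the scale ends at 1.6 in either direction. The 31 genes above the line were higher and the 7 below it lower at 60 days; Acsm1, Fam189a2, Amy1, Serpinb6a and Atp13a5 are also high at 90 days.

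A contrast with a mean can be large because of either neighbour alone, so the 60-to-30 and 60-to-90 differences were set beside it; both use the same 60-day libraries and are not independent. For 31 of the 39 genes (23 higher and 8 lower) 60 days lay on the same side of both neighbours, each at an unadjusted p under 0.05. With each step taken alone, 6.42% of all genes tested were higher and 5.94% lower than at 30 days at that limit. Against 90 days the shares were 4.97% higher and 5.79% lower. The share of all genes that passed both steps is not given here. Another 7 genes had a difference from 30 days (adjusted p under 0.05) and not from 90 days, where even the unadjusted p was 0.05 or more: Atp13a5, Serpinb6a, B3gnt5, Acsm1, Sgk1, Fam189a2 and Amy1. Wfdc12 had the difference from 90 days and not from 30 days. At an adjusted p under 0.05, 32 of the 39 differed from 30 days and 17 from 90 days, beside 238 (1.56%) and 39 (0.256%) of all genes tested, and 11 of the 39 did so in both. In 31 of the 39 genes the 3 values at 60 days lay outside all 6 others. They did so in 566 (3.72%) of all genes tested, 277 above (1.82%) and 289 below (1.9%). The contrast that chose the 39 genes averages both steps, so nothing is read from this count or from the step counts before it. The 8 genes whose values overlapped were Atp13a5, Stxbp6, Serpinb6a, B3gnt5, Acsm1, Sgk1, Fam189a2 and Amy1.

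**Figure D2:**
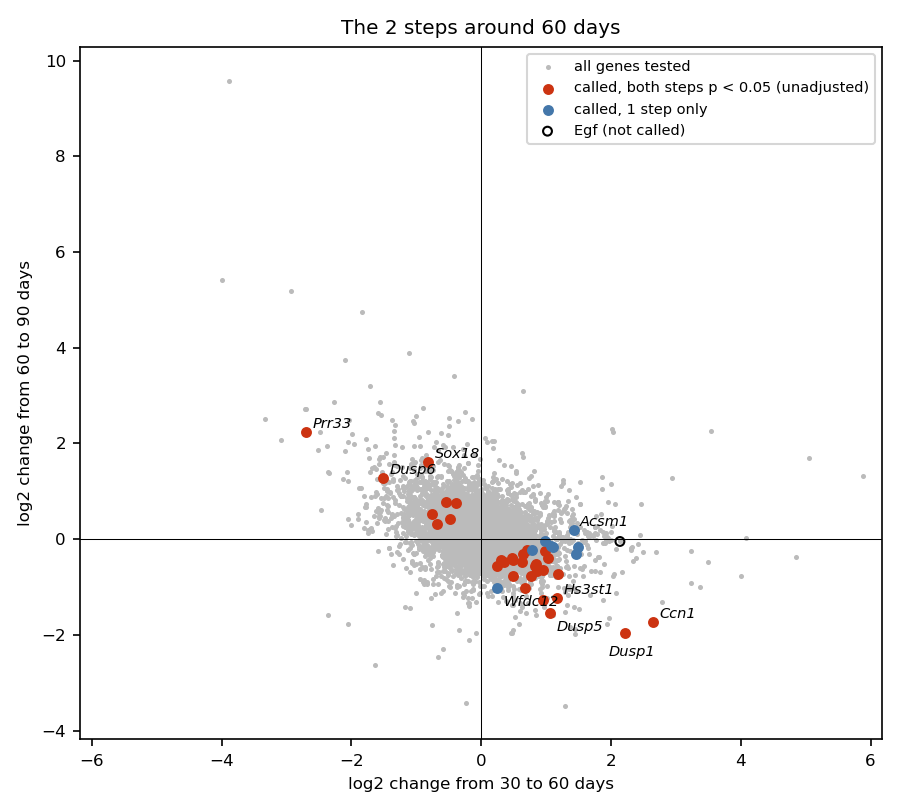
Scatter plot of the log2 change from 30 to 60 days (x axis) against the log2 change from 60 to 90 days (y axis) for each gene tested; red points are the genes among the 39 with an unadjusted p under 0.05 in both steps, blue points the other 8, and the open circle is Egf. Ccn1 and Dusp1 lie at the lower right (up, then down), Dusp6, Sox18 and Prr33 at the upper left (down, then up), and the blue points other than Wfdc12 lie near 0 on the y axis.

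The 250 bases before the RefSeq start (GRCm38.p6) are shown for Ccn1 and the 3 MAP kinase phosphatases that differed, because these early genes carried the largest peaks and the clearest dip and went in opposite directions; capitals mark matches to any of 3 motifs, and bases that GENCODE M21 places in an exon of the gene are left off. The windows are chr3:145649986-145650235 (minus strand) for Ccn1, chr17:26508520-26508722 (minus strand) for Dusp1, chr19:53528895-53529108 (plus strand) for Dusp5 and chr10:99262981-99263230 (plus strand) for Dusp6, each read 5′ to 3′ along its gene.
Ccn1: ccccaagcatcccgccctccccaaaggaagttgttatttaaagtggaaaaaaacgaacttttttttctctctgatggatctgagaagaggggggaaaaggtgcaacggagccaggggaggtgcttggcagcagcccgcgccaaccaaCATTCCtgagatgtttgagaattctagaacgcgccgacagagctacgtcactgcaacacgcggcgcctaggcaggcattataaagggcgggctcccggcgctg
Dusp1: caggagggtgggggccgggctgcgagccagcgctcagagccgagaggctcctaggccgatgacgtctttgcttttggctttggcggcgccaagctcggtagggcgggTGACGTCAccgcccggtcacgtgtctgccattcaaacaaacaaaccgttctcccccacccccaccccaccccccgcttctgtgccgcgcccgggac
Dusp5: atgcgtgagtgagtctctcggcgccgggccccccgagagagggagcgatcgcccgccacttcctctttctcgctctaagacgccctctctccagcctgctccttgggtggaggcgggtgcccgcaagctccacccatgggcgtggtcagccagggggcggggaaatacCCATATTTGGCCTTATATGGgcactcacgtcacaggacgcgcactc
Dusp6: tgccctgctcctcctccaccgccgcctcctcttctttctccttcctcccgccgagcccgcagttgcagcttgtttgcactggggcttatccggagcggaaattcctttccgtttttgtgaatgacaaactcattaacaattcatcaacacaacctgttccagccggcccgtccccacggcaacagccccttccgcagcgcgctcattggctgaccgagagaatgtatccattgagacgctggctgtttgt

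The 3 motifs, searched on both strands, were the cyclic AMP response element (CRE, TGACGTCA), the TEAD motif read by YAP partners (GGAATG) and the CArG box of serum response factor. Dusp1 held a CRE that begins 143 bases before the start, Dusp5 held 2 adjoining CArG boxes that begin 82 and 72 bases before it, Ccn1 held a TEAD motif on the opposite strand, 103 bases before it, and Dusp6 held none of the 3 in these letters. No match overlapped another. Of the 32851 RefSeq windows of 300 bases (250 before to 50 after a start), 1.79% held the CRE, 14.7% the TEAD motif and 1.63% a CArG box. Among the 39 genes 30 had a window, 46 windows in all, of which 2 held the CRE, 7 the TEAD motif and 1 a CArG box. A match is a description of letters and says nothing of binding in this gland.

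Ccn1 (ENSMUSG00000028195, chr3:145646976-145649981), a secreted matrix-associated protein that is both an early gene and a YAP target, had the smallest p of all genes tested. It measured 3.47, 3.51 and 3.43 CPM at 30 days, 21.1, 19.4 and 25.1 CPM at 60 days and 7.11, 6.74 and 5.82 CPM at 90 days. All 3 samples at 60 days were far above the other 6, and the 90-day samples lay above the 30-day ones without overlap. The log2 difference from the mean of 30 and 90 days was 2.19 ± 0.13 (SE; adjusted p = 8.40e-09), a fold of 4.57. Both steps passed, at 2.65 over 30 days (adjusted p = 3.35e-08) and 1.73 over 90 days (adjusted p = 8.51e-06).

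The phosphatases moved apart. Dusp1 (ENSMUSG00000024190, chr17:26505590-26562128), a nuclear phosphatase that inactivates p38, JNK and ERK, measured 3.97, 6.78 and 6.22 CPM at 30 days, 21.4, 19.1 and 38.8 CPM at 60 days and 8.29, 5.64 and 6.48 CPM at 90 days. The 60-day samples did not overlap the others, and sample 3 stood well above samples 1 and 2. The log2 difference was 2.08 ± 0.23 (SE; adjusted p = 0.00336), and 1.70 without 60-day sample 3 (adjusted p from 1.79e-05 to 0.0162 over the libraries left out). Dusp5 (ENSMUSG00000034765, chr19:53529109-53542431), a nuclear phosphatase specific to ERK, measured 16.7, 14.9 and 14.1 CPM at 30 days, 31.5, 30.6 and 32.9 CPM at 60 days and 14.6, 9.76 and 8.13 CPM at 90 days. The 60-day samples were tightly grouped above all others, with a log2 difference of 1.30 ± 0.14 (SE; adjusted p = 6.94e-05). Dusp6 (ENSMUSG00000019960, chr10:99263231-99267489), the cytoplasmic ERK phosphatase that ERK signalling itself induces, went the other way, at 114, 97.6 and 101 CPM at 30 days, 34.7, 36.5 and 38.7 CPM at 60 days and 75.9, 102 and 86.9 CPM at 90 days. Every 60-day sample lay below every other sample. Its log2 difference was -1.39 ± 0.11 (SE; adjusted p = 4.78e-07), with both steps past the threshold, at -1.51 from 30 days (adjusted p = 6.75e-07) and -1.27 from 90 days (adjusted p = 1.00e-05). Dusp1 and Dusp5 also overlap exons of Ergic1 and AC137853.2, respectively, on the opposite strand, and the sources used here do not give the counting's strand setting, so reads of such pairs cannot be told apart. Of the 10 phosphatases tested, 2 were higher and 1 lower, where 0.204% and 0.0525% of all genes tested were. The median was 0.12, which was 0.05 with library-size scaling, 0.04 without 90-day sample 3 and 0.19 without 90-day sample 2. Dusp7, Dusp14 and Dusp4 had log2 differences of 0.29, -0.59 and -0.69 (adjusted p = 0.217, 0.441 and 0.445).

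**Figure D3:**
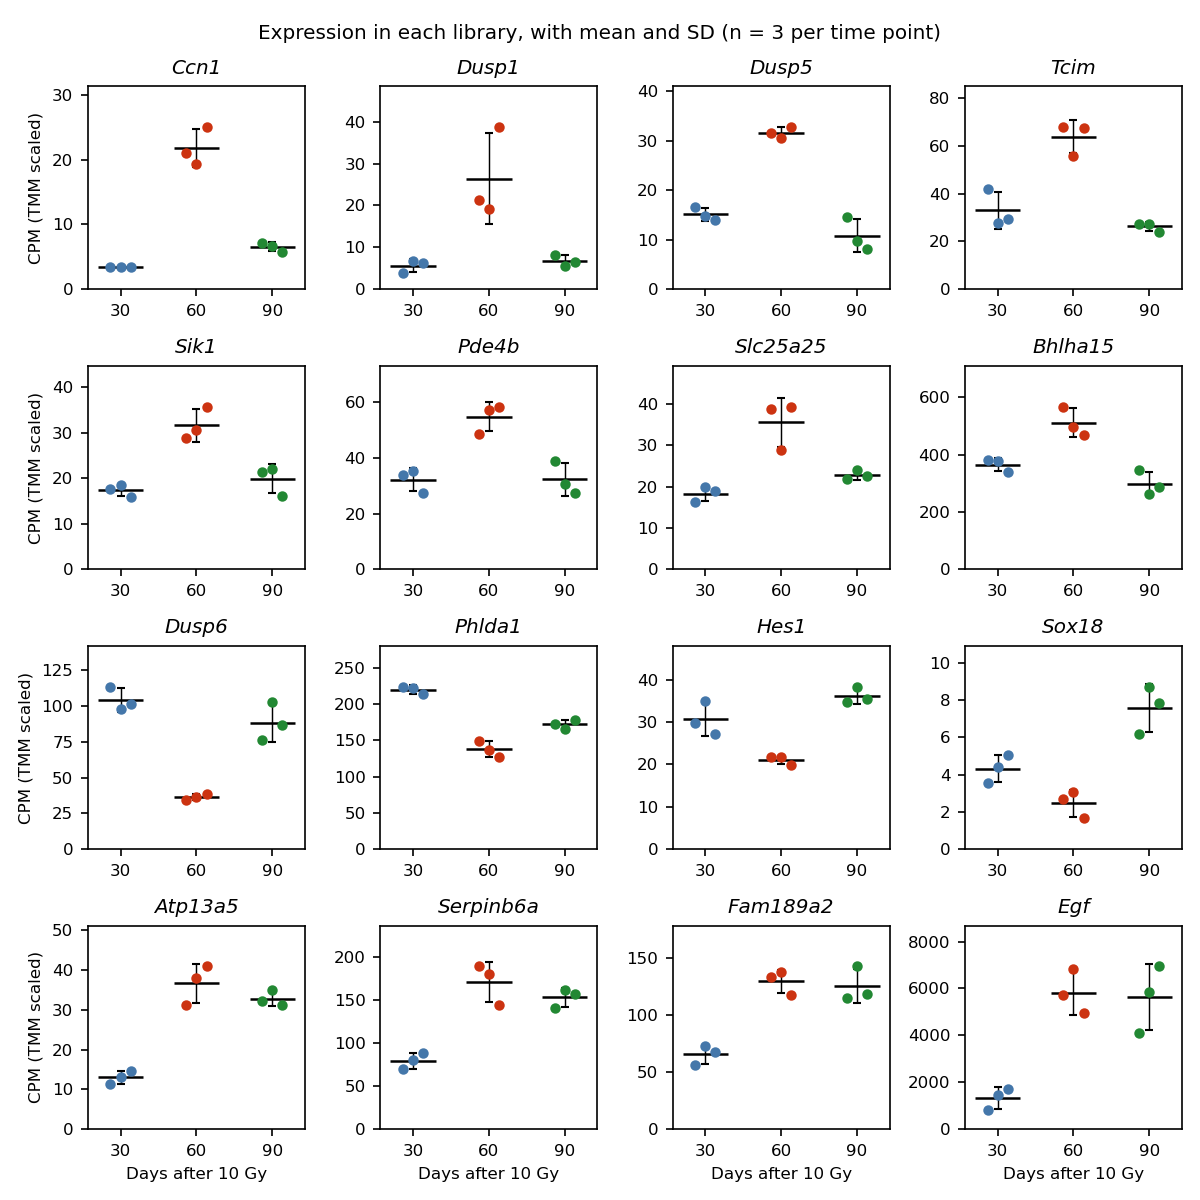
CPM of 16 genes in each library (points) against days after 10 Gy, with the mean (bar) and SD (whisker), n = 3 per time. The first 8 panels show genes highest at 60 days, the next 4 genes lowest at 60 days, and the last 4 genes that were low at 30 days and similar at 60 and 90 days.

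The ERK feedback list lay mostly below 0. Of the 15 members tested, Dusp6 and Phlda1 were lower and Dusp5 was higher at 60 days, where 0.0525% and 0.204% of all genes tested were. A log2 difference below 0 was found for 13 members, and the median was -0.34 against 0.01 over all genes. At an unadjusted p under 0.05, 8 were lower and 2 higher, where 4.72% and 4.74% of all genes tested were. These counts include Dusp6, Phlda1 and Dusp5, which this same contrast picked, so nothing is read from them. The list's summed level was 475.7 to 487.7 CPM at 60 days, 664.8 to 724 CPM at 30 days and 562.5 to 581.3 CPM at 90 days. The times did not overlap, but the sum includes Dusp6 and Phlda1, which this same contrast picked. The gap is therefore not read as a trait of the other members. Phlda1, a pleckstrin-homology protein induced by growth factors, measured 224, 222 and 214 CPM at 30 days, 149, 136 and 127 CPM at 60 days and 172, 166 and 179 CPM at 90 days. The 60-day samples were lowest without overlap, and the log2 difference was -0.50 ± 0.09 (SE; adjusted p = 0.0134). Its adjusted p was 0.0622 without 30-day sample 2, 0.199 without 60-day sample 2 and 0.0501 without 90-day sample 3, and down to 0.0103 without others. Spry1 and Spred1, inhibitors upstream of ERK, had log2 differences of -0.49 ± 0.13 and -0.30 ± 0.10 (SE; adjusted p = 0.169 and 0.261), and Dusp7 one of 0.29 ± 0.09 (adjusted p = 0.217). The receptors and ligands that feed the pathway had no member past the threshold of the contrast. In the EGF receptor and ligand list the median of 13 members was 0.05 (-0.01 with library-size scaling). In the FGF list of 9 it was 0.11 (0.06 without 60-day sample 3). The ligand Egf had the lowest p of its list, with a log2 difference of 1.09 (adjusted p = 0.0574). Its steps were 2.14 over 30 days (adjusted p = 0.00129) and 0.05 over 90 days (adjusted p = 0.97). Erbb3 and Egfr, receptors of the EGF family, had log2 differences of 0.14 and -0.13 (adjusted p = 0.713 and 0.76), and Fgfr3, Fgfr2 and Fgf1 of -0.73, 0.32 and 0.20 (adjusted p = 0.401, 0.507 and 0.512).

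Few other early genes passed. Of 31 immediate early genes tested, Ccn1 and Dusp1 were higher and none was lower, where 0.204% and 0.0525% of all genes tested were. Of the 31, 15 lay above 0 and the median was -0.01 (-0.08 without 60-day sample 1 and 0.12 without 60-day sample 3). Ier5, a stress-induced early gene, measured 12.8, 18.6 and 18.5 CPM at 30 days, 12.6, 7.82 and 7.72 CPM at 60 days and 13.3, 16.7 and 15.4 CPM at 90 days. All 60-day samples were below the others, sample 1 only just, with a log2 difference of -0.76 ± 0.17 (SE; adjusted p = 0.0841). Csrnp1 and Ier3 stood at 0.56 and 0.55 (adjusted p = 0.138 and 0.166). Egr1, the early transcription factor downstream of ERK, ranged from 6.38 to 8.82 CPM at 60 days, from 7.66 to 33.6 CPM at 30 days and from 9.91 to 17.7 CPM at 90 days, and its log2 difference was -1.21 ± 0.47 (SE; adjusted p = 0.494). Among 22 YAP targets Ccn1 alone passed, 10 lay above 0 and the median was -0.03 (0.05 without 60-day sample 1); Tgfb2, Igfbp3 and Ajuba had log2 differences of 0.31, 0.41 and 0.28 (adjusted p = 0.262, 0.287 and 0.599).

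**Figure D4:**
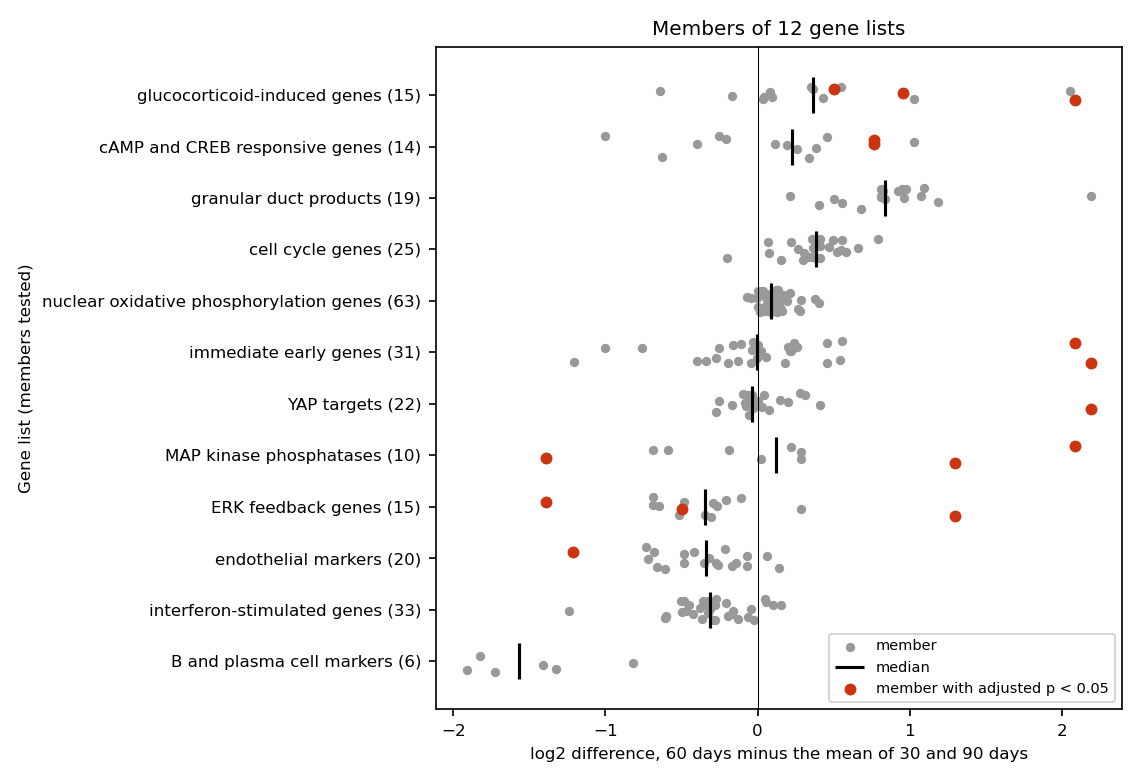
Log2 difference of 60 days from the mean of 30 and 90 days (x axis) for each tested member (points) of 12 gene lists (y axis); black bars are list medians, red points members past an adjusted p of 0.05. Ccn1 and Dusp1 stand away from the rest of the immediate early genes, ERK feedback genes lie mostly below 0, and the 19 granular duct products lie above 0 with none past the threshold.

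Genes that answer to cyclic AMP held a pair of peaks. Sik1, a salt-inducible kinase that cyclic AMP induces, measured 17.7, 18.6 and 15.9 CPM at 30 days, 28.7, 30.5 and 35.7 CPM at 60 days and 21.4, 22 and 16.2 CPM at 90 days. Its 60-day samples lay above all others, with a log2 difference of 0.77 ± 0.11 (SE; adjusted p = 0.00298). Pde4b, a phosphodiesterase that breaks cyclic AMP down, measured 33.7, 35.2 and 27.4 CPM at 30 days, 48.7, 57.3 and 58.4 CPM at 60 days and 38.8, 30.6 and 27.3 CPM at 90 days. The 60-day samples were again highest without overlap, with a log2 difference of 0.77 ± 0.11 (SE; adjusted p = 0.00298). With library-size scaling the adjusted p of Sik1 was 0.0758, and without 60-day sample 2 that of Pde4b was 0.0503 (down to 0.000508 without others). Of the 14 cyclic AMP genes tested, 2 were higher and none lower, where 0.204% and 0.0525% of all genes tested were. At an unadjusted p under 0.05, 6 were higher and 2 lower, where 4.74% and 4.72% of all genes were. These counts include Sik1 and Pde4b, which this same contrast picked, so nothing is read from them. While 9 lay above 0, the early genes Fos, Fosb and Nr4a1 were among the 5 below 0, with Rgs2 and Crtc1. The median was 0.23, which was 0.15 without 60-day sample 3, 0.3 without 60-day sample 1 and 0.16 with library-size scaling. Rgs2, a brake on receptor signalling, and Pde4d had log2 differences of -0.63 and 0.39 (adjusted p = 0.261 and 0.3).

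Glucocorticoid-induced genes held 3 of the 39. Of 15 tested, Dusp1, Cebpd and Sgk1 were higher and none was lower, where 0.204% and 0.0525% of all genes tested were. Of the 15, 13 lay above 0, where 51.3% of all genes tested did, and the median was 0.36. At an unadjusted p under 0.05, 8 were higher, where 4.74% of all genes were. These counts include the 3 genes that this same contrast picked, so nothing is read from them. The list summed to 653.8 to 665.7 CPM at 60 days, 465.7 to 544.7 CPM at 30 days and 454.4 to 559.3 CPM at 90 days. That sum includes Dusp1, Cebpd and Sgk1, which this same contrast picked, and Per1, described below. It is therefore not read as a trait of the other members. Cebpd, a transcription factor of the acute-phase response, averaged 10.9 ± 1.36 CPM at 30 days, 24.6 ± 2.58 at 60 days and 14.7 ± 4.45 at 90 days (SD, n = 3), with a log2 difference of 0.96 ± 0.15 (SE; adjusted p = 0.00468). Sgk1, a kinase that regulates epithelial sodium transport, averaged 69.6, 119 and 102 CPM, with a log2 difference of 0.50 ± 0.10 (SE; adjusted p = 0.0285) and values at 90 days that overlapped those at 60 days. Without 60-day sample 2 the adjusted p was 0.051 for Cebpd and 0.267 for Sgk1, and Sgk1 also missed the threshold without 30-day sample 2, 60-day sample 3, 90-day sample 1 or 90-day sample 3 (0.0571 to 0.0977). Tsc22d3, Klf9 and Angptl4, other hormone-induced genes, had log2 differences of 0.35, 0.36 and 2.05 (adjusted p = 0.217 each), Angptl4 at levels of at most 1.67 CPM. The members below 0 were Fkbp5 and Zbtb16, at -0.17 and -0.64, neither past the threshold. Both had their highest mean at 90 days. Errfi1, Mt1, Ddit4 and Nfkbia lay near 0, from 0.04 to 0.09. Per1, a clock gene that both cyclic AMP and glucocorticoid induce, measured 92.9, 53.9 and 59.7 CPM at 30 days, 96.3, 105 and 119 CPM at 60 days and 56.0, 43.4 and 19.3 CPM at 90 days. Its 60-day samples lay above all others, but with a log2 difference of 1.03 ± 0.33 (SE) it did not pass (adjusted p = 0.392). Of 18 circadian clock genes none passed, 9 lay above 0 and the median was -0.04. Single steps differed: the list's median was -0.20 against 30 days and 0.25 against 90 days. Against 30 days 2 clock genes were lower at an adjusted p under 0.05, where 65 of all 15224 genes tested were. Against 90 days 1 was higher, where 25 of all genes were. At 30, 60 and 90 days Per2 averaged 36.3, 19.4 and 16.4 CPM and Per3 84.5, 50.2 and 39.5 CPM. Dbp averaged 183, 168 and 88.3 CPM. The part of the hour of collection was not tested. Dbp and Nr1d2 had log2 differences of 0.40 and 0.29 (adjusted p = 0.168 and 0.23).

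Other genes with peaks had varied roles. Tcim (ENSMUSG00000056313, chr8:24437180-24438984), a small regulator linked to Wnt signalling, measured 42.0, 27.6 and 29.4 CPM at 30 days, 67.9, 55.6 and 67.5 CPM at 60 days and 27.3, 27.5 and 23.9 CPM at 90 days. The 60-day samples stood clear of the rest, with a log2 difference of 1.11 ± 0.12 (SE; adjusted p = 6.94e-05). Hs3st1 (ENSMUSG00000051022, chr5:39613935-39755475), an enzyme that modifies heparan sulfate, measured 12.5, 9.15 and 8.23 CPM at 30 days, 24.9, 23.2 and 18.9 CPM at 60 days and 11.4, 8.52 and 8.48 CPM at 90 days. It too did not overlap between 60 days and the other times, and its log2 difference was 1.2 ± 0.14 (SE; adjusted p = 0.000263). Gadd45g, a stress-responsive growth regulator, measured 11.1, 11.9 and 11.6 CPM at 30 days, 21.9, 17 and 16.6 CPM at 60 days and 7.18, 10.5 and 9.99 CPM at 90 days. The 60-day samples were highest, sample 1 most of all, with a log2 difference of 0.84 ± 0.13 (SE; adjusted p = 0.00468). Tent5a, a poly(A) polymerase that lengthens tails of secretory and collagen messages, measured 62.2, 53 and 51.5 CPM at 30 days, 83.7, 97.6 and 113 CPM at 60 days and 64.5, 74.5 and 62.1 CPM at 90 days. Its lowest 60-day sample was above the highest other sample, and the log2 difference was 0.69 ± 0.10 (SE; adjusted p = 0.00298; 0.0575 with library-size scaling).

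A further 3 genes had higher levels at 60 days. Slc25a25, a calcium-regulated carrier that moves ATP-Mg and phosphate across the inner mitochondrial membrane, measured 16.2, 19.9 and 18.9 CPM at 30 days, 38.7, 28.8 and 39.4 CPM at 60 days and 21.8, 23.9 and 22.6 CPM at 90 days. All 60-day samples were above the others, sample 2 least so, and the log2 difference was 0.80 ± 0.11 (SE; adjusted p = 0.00128). Lars2, the mitochondrial leucyl-tRNA synthetase, averaged 68.4, 105 and 75.8 CPM, with a log2 difference of 0.55 ± 0.09 (SE; adjusted p = 0.00605). Lars2 had an adjusted p of 0.0754 without 60-day sample 2 and as low as 0.00685 without others, and of 0.222 with library-size scaling. Kcnk5, a background potassium channel, measured 17.8, 26.5 and 20.7 CPM at 30 days, 44.2, 39.7 and 48.6 CPM at 60 days and 32.5, 32.8 and 35.5 CPM at 90 days. Its 60-day samples were highest, the 90-day samples lay between, and the log2 difference was 0.71 ± 0.11 (SE; adjusted p = 0.00376; 0.097 with library-size scaling). None of the 63 nuclear genes of oxidative phosphorylation passed; 60 lay above 0, with a median of 0.09, and that median was -0.03 without 60-day sample 1. Atp5k, Ndufs4 and Cox5a, subunits of the respiratory chain and ATP synthase, had log2 differences of 0.40, 0.21 and 0.17 (adjusted p = 0.492, 0.566 and 0.605). The 12 transcripts of the mitochondrial genome had none past the threshold, 11 below 0 and a median of -0.16, which was -0.06 without 60-day sample 1 and -0.27 without 60-day sample 2; mt-Nd6, mt-Nd4l and mt-Nd2 had log2 differences of -0.39, -0.42 and -0.29 (adjusted p = 0.311, 0.492 and 0.517).

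Another 7 of the 39 genes are set side by side here by their known roles and not as a list. All were higher at 60 days, as were 31 of the 39, so nothing is read from their shared direction. Bhlha15 is the transcription factor Mist1 that maintains the secretory architecture of acinar cells. It averaged 365 ± 23.9 CPM at 30 days, 511 ± 50.7 at 60 days and 298 ± 42.3 at 90 days (SD, n = 3). Its log2 difference was 0.63 ± 0.10 (SE, adjusted p = 0.00644). Atf6, a sensor of endoplasmic reticulum stress, averaged 60.9, 77.5 and 55.6 CPM, with a log2 difference of 0.41 ± 0.09 (SE; adjusted p = 0.0484). Rab3a, a small GTPase of secretory vesicles, averaged 19.9, 35.6 and 25.0 CPM, with a log2 difference of 0.67 ± 0.11 (SE; adjusted p = 0.00605). Stxbp6, a protein that binds the membrane fusion machinery, measured 109, 114 and 114 CPM at 30 days, 197, 247 and 219 CPM at 60 days and 162, 198 and 196 CPM at 90 days. Its lowest 60-day sample fell just below the highest 90-day sample, so the times overlapped, and the log2 difference was 0.62 ± 0.10 (SE; adjusted p = 0.00391). Adra1a, an adrenergic receptor that raises calcium in acinar cells, averaged 25.0, 39.2 and 31.5 CPM, with a log2 difference of 0.48 ± 0.10 (SE; adjusted p = 0.0418). Itpkb, a kinase that converts the calcium-releasing messenger inositol trisphosphate, averaged 101, 120 and 80.9 CPM, with a log2 difference of 0.41 ± 0.08 (SE; adjusted p = 0.0329). Wfdc12, a small secreted protein with a WAP domain, averaged 640, 759 and 377 CPM, with a log2 difference of 0.63 ± 0.12 (SE; adjusted p = 0.0225), of which the step from 30 days was 0.25 (adjusted p = 0.501) and that against 90 days 1.01 (adjusted p = 0.00167).

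Without 60-day sample 2 the adjusted p was 0.0708 for Bhlha15, 0.0611 for Rab3a, 0.112 for Stxbp6 and 0.244 for Wfdc12; Bhlha15, Rab3a and Stxbp6 kept their calls when any other library was left out. Wfdc12 also missed without 30-day sample 2, 30-day sample 3 or 60-day sample 1 (0.055 to 0.0755). Atf6, Adra1a and Itpkb each missed it in 7 of 9 such fits, with ranges of 0.0217 to 0.598, 0.0226 to 0.352 and 0.0168 to 0.294. Of 16 acinar secretion genes tested, Bhlha15 and Amy1 were higher and none lower, where 0.204% and 0.0525% of all genes tested were. Of the 16, 12 lay above 0 and the median was 0.12, which was 0.26 without 60-day sample 1 and 0.07 with library-size scaling. Pip, Lpo and Muc19, other secreted acinar products, had log2 differences of 0.59, 0.34 and -1.34 (adjusted p = 0.171, 0.415 and 0.565), Muc19 at no more than 1.15 CPM. Of 29 muscarinic and calcium signalling genes Adra1a alone passed, 14 lay above 0 and the median was -0.01; the calcium release channel Itpr1 had a log2 difference of 0.25, the mitochondrial uniporter Mcu -0.43 and the G-protein regulator Rgs4 -0.77 (adjusted p = 0.345, 0.403 and 0.572). Of 18 endoplasmic reticulum stress genes none passed and the median was 0.01 (-0.05 with library-size scaling); Dnajb9, Chac1 and Sdf2l1 had log2 differences of 0.22, -1.98 and -0.26 (adjusted p = 0.49, 0.499 and 0.676).

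A further 4 higher genes had both steps on the same side. Tex2, a lipid transfer protein of the endoplasmic reticulum, Ulk1, the kinase that starts autophagy, Spty2d1, a histone chaperone, and Iffo2, an intermediate filament family member, had log2 differences of 0.47, 0.37, 0.43 and 0.46 (adjusted p = 0.0418, 0.0478, 0.0484 and 0.0484). Leaving out single libraries ended the call of Tex2 in 6 of 9 fits (0.034 to 0.293), of Ulk1 in all 9 (0.0506 to 0.294), of Spty2d1 in 8 (0.0268 to 0.529) and of Iffo2 in 8 (0.0371 to 0.226). Spty2d1 and Iffo2 were the last genes inside the threshold. Just outside it were the RNA gene 2900052L18Rik, at -0.94, and Egf, at 1.09.

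The 7 genes that differed from 30 but not from 90 days had low values at 30 days. Atp13a5, a P-type transport ATPase, measured 11.4, 13.2 and 14.6 CPM at 30 days, 31.3, 37.9 and 40.9 CPM at 60 days and 32.3, 34.9 and 31.1 CPM at 90 days. The 30-day samples were lowest, and the 60- and 90-day samples overlapped. Its log2 difference was 0.82 ± 0.10 (SE; adjusted p = 0.000596), made of 1.49 against 30 days (adjusted p = 3.30e-06) and 0.16 against 90 days (adjusted p = 0.676). Serpinb6a, an intracellular protease inhibitor, measured 69.3, 79.8 and 88.1 CPM at 30 days, 189, 180 and 145 CPM at 60 days and 141, 162 and 157 CPM at 90 days. Here too the later times overlapped, and the log2 difference of 0.64 ± 0.10 (SE; adjusted p = 0.00468) held 1.11 against 30 days and 0.16 against 90 days. Its adjusted p was 0.0978 without 60-day sample 2 and as low as 0.000552 without others. B3gnt5, a glycolipid glycosyltransferase, averaged 3.99, 11 and 8.89 CPM, Acsm1, a mitochondrial acyl-CoA synthetase, 6.26, 16.8 and 19.3 CPM, Fam189a2 65.7, 130 and 126 CPM, and Amy1, salivary amylase, 7.33, 15.5 and 14.1 CPM at 30, 60 and 90 days. Acsm1 was the 1 gene of the 31 higher ones with a higher fitted level at 90 than at 60 days. Without 60-day sample 2 the adjusted p was 0.204 for B3gnt5, 0.351 for Acsm1, 0.338 for Fam189a2 and 0.293 for Amy1; the last 3 missed the threshold in 4, 5 and 7 of the 9 fits that left out a library. Amy1 shares exon sequence with Rnpc3 on the same strand and belongs to a family of near-identical amylase genes, so its counts are uncertain.

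The granular duct products showed that shape as a list, with no member past the threshold of the contrast. All 19 lay above 0, with a median of 0.84, and 17 were higher at an unadjusted p under 0.05, where 4.74% of all genes tested were. The median against 30 days was 1.86 and against 90 days -0.08. Against 30 days alone 14 were higher at an adjusted p under 0.05, where 173 of all 15224 genes tested were. None passed against 90 days. Klk1 and Crisp1 departed from the shape. Klk1 differed by 0.23 from 30 days and by 0.19 from 90 days. Crisp1 averaged 3.09, 11.5 and 23.7 CPM at 30, 60 and 90 days. Egf measured 811, 1465 and 1698 CPM at 30 days, 5721, 6815 and 4941.5 CPM at 60 days and 4116, 5859 and 6942 CPM at 90 days. The 30-day samples were lowest and the later samples overlapped, with a log2 difference of 1.09 ± 0.21 (SE; adjusted p = 0.0574). Ren1, which encodes renin, measured 1.70, 3.63 and 4.56 CPM at 30 days, 42.5, 41.7 and 20.5 CPM at 60 days and 14.3, 14.1 and 24.1 CPM at 90 days. Its 60-day sample 3 fell within the 90-day range, with a log2 difference of 2.19 ± 0.33 (SE; adjusted p = 0.0758). Klk1b9, a kallikrein, had one of 0.98 (adjusted p = 0.132), and reads of the near-identical Klk1b genes may be split between copies.

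The 8 lower genes all lay below both neighbours. Hes1, a transcriptional repressor induced by Notch, measured 29.7, 34.9 and 27.2 CPM at 30 days, 21.6, 21.7 and 19.9 CPM at 60 days and 34.7, 38.4 and 35.4 CPM at 90 days. The 60-day samples were lowest without overlap, with a log2 difference of -0.66 ± 0.10 (SE; adjusted p = 0.00376). Sertad4, a nuclear protein of the SERTA family, measured 33.0, 30.9 and 23.6 CPM at 30 days, 18.1, 18.4 and 15.0 CPM at 60 days and 23.4, 27.7 and 23.0 CPM at 90 days. Again no 60-day sample reached the others, with a log2 difference of -0.65 ± 0.12 (SE; adjusted p = 0.0241). Clk3, a kinase that acts on splicing factors, measured 50.8, 55.8 and 53.2 CPM at 30 days, 33.7, 40.3 and 40.4 CPM at 60 days and 52.9, 50.6 and 50.2 CPM at 90 days. The outer times overlapped each other and 60 days lay below both, with a log2 difference of -0.45 ± 0.09 (SE; adjusted p = 0.0343). Prr33 (ENSMUSG00000043795, chr7:142491074-142506771), annotated as a long intergenic RNA, had 23, 28 and 31 counts at 30 days, 1, 7 and 10 at 60 days and 48, 32 and 20 at 90 days, or 1.63, 1.66 and 1.84, then 0.0432, 0.317 and 0.417, then 1.62, 1.10 and 1.00 CPM. The 60-day samples were lowest, sample 1 with a single count, and the fitted log2 difference was -2.47 ± 0.49 (SE; adjusted p = 0.039), at a depth where a few counts move it.

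Without 60-day sample 2 the adjusted p was 0.0483 for Hes1, 0.138 for Sertad4, 0.171 for Clk3 and 0.199 for Prr33. Sertad4 also missed the threshold without 30-day sample 2, 60-day sample 3 or 90-day sample 2 (0.061 to 0.0937), and Clk3 and Prr33 each missed it in 7 of 9 fits, with lowest values of 0.0292 and 0.021.

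Sox18 (ENSMUSG00000046470, chr2:181669836-181671640), a transcription factor of blood and lymph vessel endothelium, measured 3.54, 4.40 and 5.03 CPM at 30 days, 2.68, 3.08 and 1.67 CPM at 60 days and 6.17, 8.73 and 7.83 CPM at 90 days. The 3 times formed separate ranges, lowest at 60 and highest at 90 days, with a log2 difference of -1.21 ± 0.22 (SE; adjusted p = 0.0201) made of -0.81 against 30 days (adjusted p = 0.15) and -1.62 against 90 days (adjusted p = 0.00342). It missed the threshold in 6 of the 9 fits that left out a library, with adjusted p of 0.0113 to 0.0622, the highest without 30-day sample 2. Among endothelial markers, 18 of 20 lay below 0, the median was -0.34, and 7, Sox18 among them, were lower at an unadjusted p under 0.05, where 4.72% of all genes tested were. Sox18 was the 1 marker past the adjusted threshold, where 0.0525% of all genes tested were lower. This same contrast picked Sox18, so nothing is read from these counts. The summed level of the markers was 165.6 to 172 CPM at 60 days, 190.6 to 208.8 CPM at 30 days and 187 to 228.7 CPM at 90 days, and no marker was at 0 in all libraries. Its part in the difference of Sox18 was not tested, and in bulk tissue fewer cells of a type and less RNA per cell cannot be told apart. Egfl7 and Notch4, both endothelial signalling genes, and Tie1, an endothelial receptor, had log2 differences of -0.73, -0.68 and -0.35 (adjusted p = 0.0637, 0.181 and 0.362).

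Strand-shared reads bear on more of the 39 genes than those named so far: 14 have an exon that overlaps a gene on the opposite strand, among them Tcim, Dusp5, Slc25a25, Dusp1, Serpinb6a, Cebpd, Rab3a, Phlda1, Wfdc12, Sertad4, Itpkb, Clk3 and Spty2d1. Iffo2 shares exon sequence with Gm21969 on its own strand. Of the 39 genes 38 were annotated as protein coding.

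Lists of other processes and cell types held none of the 39 genes. Cell cycle genes had 24 of 25 members above 0 and a median of 0.38 that was 0.17 without 60-day sample 3; Kif11, Nusap1 and Ccna2 had log2 differences of 0.79, 0.66 and 0.50 (adjusted p = 0.4, 0.495 and 0.648). Interferon-stimulated genes had 29 of 33 members below 0 and a median of -0.31 (-0.20 without 30-day sample 3), from -0.03 against 30 days and -0.57 against 90 days; Iigp1, Tap1 and Gbp2 had log2 differences of -0.60, -0.33 and -0.50 (adjusted p = 0.263, 0.311 and 0.34). All 9 class II antigen presentation genes lay below 0, with a median of -0.35 that was -0.20 without 90-day sample 2. The class II median was -0.10 against 30 days and -0.62 against 90 days. Ciita, H2-Aa and H2-Eb1 had log2 differences of -0.60, -0.35 and -0.38 (adjusted p = 0.549, 0.594 and 0.645). B and plasma cell markers had the lowest list median, -1.57 over 6 genes, and it was -0.90 without 90-day sample 2. Their median was -0.39 against 30 days and -2.48 against 90 days, so the difference lay mainly against 90 days. Igha, Pou2af1 and Mzb1 had log2 differences of -0.82, -1.82 and -1.73 (adjusted p = 0.394, 0.462 and 0.477). T cell markers (10 tested), macrophage markers (13) and red blood cell genes (5) had medians of -0.33, -0.23 and -0.71. In that order, the medians were 0.19, -0.11 and -0.11 against 30 days and -0.84, -0.21 and -1.22 against 90 days. Without 90-day sample 2 the contrast's median was -0.09 for the T cell and -0.39 for the red blood cell list. The T cell median was -0.59 without 30-day sample 1, and the macrophage median was -0.08 without 30-day sample 3. The p53 targets, which respond to DNA damage, had a median of -0.11 over 20 genes (-0.06 without 30-day sample 3), and Cdkn1a, a cell cycle inhibitor, had a log2 difference of -0.82 ± 0.20 (SE; adjusted p = 0.155), followed by Btg2 at -0.34 and Bbc3 at -0.70 (adjusted p = 0.171 and 0.262).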

How the data were processed

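RNA-seq of total RNA from sections of irradiated mouse submandibular gland gave 9 libraries (SMARTER mRNA-seq kit, per the labels' protocols). The deposited values are raw counts per gene, unnormalized; fastp, STAR, featureCounts and the build mm10 are named, per the submitters' processing notes. The annotation, strand setting and read filters are not given in the sources used here. The table has 3 further columns that match no listed sample, and they were not used. Samples were grouped by the days in their titles.

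From the counts, genes with low counts were removed (filterByExpr, minimum count 10), libraries were scaled by TMM, and edgeR 4.0.16 (R 4.3.3) fitted all 9 libraries with a robust quasi-likelihood model and Benjamini-Hochberg adjustment over the 15224 genes, at an adjusted p under 0.05. No covariate was given by the labels. The scripts were tested on simulated data. The alternatives tried were scaling by DESeq2's size factors or by library size, the tests of DESeq2 1.42.0 and limma-voom (limma 3.58.1), other count filters, a non-robust fit, counts drawn down to the smallest total, the sample number as a block, and each library left out in turn; the closing section gives their effect.

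Every gene past the threshold is named, except 1 lower gene that, like a few list members, is not reported here. Values in each library are given for those averaging at least 1 CPM, up to 14 of the higher and 10 of the lower with the lowest p, and for up to 3 further members of each gene list. The members and the 32 lists were chosen with earlier results of these data known, so their counts and medians describe and do not test. Positions are from GENCODE M21 (GRCm38) and promoters from RefSeq (GRCm38.p6). Libraries of a group differed by more than sampling noise, so none was taken as a copy of another. This cannot show whether they came from separate animals. Total counts of 16541396 to 26065856 per library set the counting precision, and the gene with the fewest counts among those named as different, Prr33, had 1 in a library.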

Additional observations from a re-analysis of the deposited data

How the results depend on the processing

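The count of 39 genes was 40 with DESeq2-type size factors, 37 with at least 10 counts in every library, 35 with counts drawn down to the smallest total, 30 without the robust step and 28 with limma-voom. It was 20 with library-size scaling alone, 129 with DESeq2, 230 without a low-count filter and 8 at an absolute log2 difference of at least 1, and it ran from 13 to 81 with single libraries left out; the causes were not tested. For 60 against 30 days the count was 238, with 90 under library-size scaling, 369 with DESeq2, 152 with limma-voom, 459 without the filter, 72 at the log2 limit, and 73 to 244 with a library left out. For 60 against 90 days it was 39, with 141 by DESeq2, 354 without the filter, 14 at the log2 limit, and 16 to 103 with a library left out; with library-size scaling 9 were higher and 19 lower at 60 days, against 25 and 14 with TMM scaling. Library-size scaling cut the genes whose 60-day values lay outside all others from 566 to 263 (57 above and 206 below, against 277 and 289), and the list members past the threshold from 13 to 8; with libraries left out the latter were 5 to 17. Of the 39 genes, 10 kept their calls in all 18 alternatives and 29 lost theirs in at least 1, 23 of them under library-size scaling. Among named genes the sign turned for 3 adipocyte genes that did not pass, whose log2 differences with a library left out ran from -1.64 to 0.16 for Car3 (0.16 without 30-day sample 2), from -0.31 to 0.049 for Plin4 (0.049 without 60-day sample 2) and from -1.28 to 0.40 for Cfd (0.40 without 30-day sample 2 and 0.09 without 60-day sample 2).

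With the sample number as a replicate block, 73 genes differed in the contrast, 92 between 60 and 90 days, and 21 list members passed; none of the 39 calls was lost. Samples with the same number correlated at -0.06 to 0.191 in their deviations from the time means, not all above 0.1, so the numbers were not taken to pair the samples. Genes near 1 CPM, such as Prr33, rest on few counts.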

Other observations

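None of the stromal and stress gene lists left out of the report had a member past the threshold at 60 days. Heat shock genes (13 tested) had a median log2 difference of 0.07 (0.04 without 60-day sample 2), and Hspb1, Dnaja1 and Hspa8, which encode chaperones, had log2 differences of -0.35, 0.21 and -0.12 (adjusted p = 0.423, 0.52 and 0.749). Hypoxia genes (14 tested) had a median of -0.02 (-0.10 without 60-day sample 1 and 0.02 without 30-day sample 3). Adm, which encodes the vasodilator adrenomedullin, measured 6.03, 8.08 and 7.10 CPM at 30 days, 5.87, 4.79 and 3.96 CPM at 60 days and 9.30, 9.76 and 8.48 CPM at 90 days, with a log2 difference of -0.73 ± 0.17 (SE; adjusted p = 0.0887 by edgeR's quasi-likelihood test). Its 60-day samples lay below all others, and against 90 days alone it differed (adjusted p = 0.0428). Duct markers (15 tested) had a median of -0.05 (0.01 without 60-day sample 2); Foxi1 and Ascl3, transcription factors of ionocytes, had log2 differences of -0.45 and -0.37 (adjusted p = 0.169 and 0.217), and Scnn1b, a sodium channel subunit, one of 0.24 (adjusted p = 0.418).

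Basal and myoepithelial markers (11 tested) had a median of 0.06 (-0.02 with library-size scaling and -0.03 without 60-day sample 1), with Krt5, Trp63 and Tagln at -0.29, -0.37 and 0.60 (adjusted p = 0.486, 0.572 and 0.619). Fibroblast and matrix genes (24 tested) had a median of -0.05, from -0.19 without 60-day sample 3 to 0.06 without 30-day sample 3, with Eln, which encodes elastin, at -0.66 (adjusted p = 0.338). Schwann and neuronal markers (11 tested) had a median of -0.19, from -0.62 without 60-day sample 3 to -0.03 without 30-day sample 3. Adipocyte markers (5 tested) had one of -0.13, from -0.49 without 30-day sample 1 to 0.07 without 60-day sample 2, and skeletal muscle markers (2 tested) one of 0.54, which was 0.24 without 60-day sample 2. Among T cell markers, Lck, a T cell kinase, had a log2 difference of -0.94 (adjusted p = 0.466).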
